A study of Mus musculus with 143 samples.

Results

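The replication-dependent histone genes are the gene rows of the count table whose symbol begins with Hist1h, Hist2h, Hist3h or Hist4h, a choice that uses names only. They number 68 of 23337 gene rows, and comprise 6 genes for the linker histone H1, 18 for H2A, 19 for H2B, 12 for H3 and 13 for H4. Among those of H2B, Hist3h2bb-ps has 0 annotated coding bases and is kept by its name. The cells are 143 microglia, the resident macrophages of the brain, from wild type male C57BL/6N mice at postnatal day 7. They were sorted singly from pooled cerebella through a gate for low CD45 with CD11b, Gpnmb and Clec7a, the last pair being surface proteins of microglia of developing white matter. The labels give all 143 cells 1 group and tie no cell to a mouse, so the cells are 1 sample, sorted onto 2 plates (95 cells on plate 1 and 48 on plate 2), and no p-value is given. The age is that of the age label, although a library name speaks of adult tissue.

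Histones wrap DNA into nucleosomes, whose core holds H2A, H2B, H3 and H4, while H1 binds the DNA between them. The genes of this family lie in clusters, have mostly no intron, and are transcribed chiefly when DNA is copied. Their mRNAs are unusual in that most end after a short stem-loop, bound by the protein Slbp, in place of a poly(A) tail. Smart-seq2, the method used, primes complementary DNA with oligo-dT and reads full transcripts, so an mRNA without a run of adenines offers that primer no tail. Other forms of the same genes with a poly(A) tail are known, mainly in cells that no longer divide, and replication-independent variants such as H2afz and H3f3b have ordinary poly(A) tails. The labels and the design text state no aim for this family, and the values below describe which of its genes were read, in which cells, and beside which S phase and mitotic genes.

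The stem-loops are shown because they define the transcript end that separates this family from other mRNAs. A stem of 6 bases, a loop of 4 and the complementary stem were looked for in the longest GENCODE M21 transcript of each gene. Only stems that begin with GG, end in T and hold C or T between were taken. The forms of stem below are thus partly set by the search, and a gene with another stem would count as having none. The build is GRCm38, which is mm10. This longest transcript is the annotated transcript named below, and shorter transcripts of a gene were not searched. A stem-loop was found in 45 of 68 genes. The stem was GGCTCT in all 4 H1, 11 H2A, 9 H2B and 9 H3 genes with one, and in H4 it was GGCCCT in 10 genes and GGTCCT in 2. The genes below are those with the highest levels that hold a stem-loop, together with the leading H3 gene, each with 5 flanking bases on either side. Capitals mark the stem, and coordinates are those of the stem and loop without the flanks.
Hist1h2ae (H2A, chr13:23570668-23570683, minus strand): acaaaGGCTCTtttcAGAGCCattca
Hist1h2ab (H2A, chr13:23751572-23751587, plus strand): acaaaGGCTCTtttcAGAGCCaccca
Hist2h2ac (H2A, chr3:96220418-96220433, minus strand): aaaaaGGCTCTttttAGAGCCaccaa
Hist3h2a (H2A, chr11:58955172-58955187, plus strand): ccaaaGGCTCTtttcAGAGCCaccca
Hist1h1e (H1, chr13:23621782-23621797, minus strand): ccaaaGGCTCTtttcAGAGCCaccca
Hist1h1c (H1, chr13:23739512-23739527, plus strand): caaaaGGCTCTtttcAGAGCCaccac
Hist1h3c (H3, chr13:23745047-23745062, minus strand): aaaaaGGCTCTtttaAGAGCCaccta
Hist1h4d (H4, chr13:23581950-23581965, plus strand): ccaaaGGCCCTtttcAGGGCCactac
Hist1h4i (H4, chr13:22040966-22040981, minus strand): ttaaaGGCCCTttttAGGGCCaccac
Of these, Hist1h4d and Hist1h4i carry the stem of the H4 genes, and Hist2h2ac and Hist1h4i share a loop of T only. The core of Hist1h2ae was the commonest and was found in 25 genes, 10 of them H2A genes.

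A gene is called read in a cell with at least 1 count. Of the 68 genes, 56 were read in 1 cell or more. Of these, 26 were read in 5% of cells or more, and 30 were read more rarely. Among those 30, Hist1h2be and Hist1h2bg were read in 6 cells, Hist1h2ad, Hist2h2be and Hist1h4n in 5, and the other 25 in 1 to 4 cells. The 12 genes read in 0 cells were Hist1h2aa, Hist1h2ap, Hist1h2ba, Hist1h2bq, Hist1h2br, Hist1h3g, Hist1h3h, Hist1h4b, Hist2h2aa2, Hist2h2ab, Hist3h2bb-ps and Hist4h4. For 0 of 143 cells the exact Clopper-Pearson 95% interval reaches 2.55%, which covers counting error only. Among these 12 genes the share of 50-base windows that occur in another gene ran from 8.14% for Hist4h4 to 100% for Hist2h2aa2. Where most windows are shared, reads could have been assigned to another gene or dropped, so a 0 sets no limit on the share of cells. CPM, a gene's counts divided by all gene counts of the cell and scaled to 1000000, was used as the level, and pooled CPM is a gene's counts over a set of cells divided by all gene counts of those cells. Summed over the family, pooled CPM was 504, which is 0.0504% of gene counts. A cell had a median of 4 of the 68 genes read and at most 27, and 9 cells had 0.

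The reads were concentrated in few genes. The 5 genes with the highest pooled CPM held 62.6% of the family's reads and the leading 10 held 88.2%. Hist1h2bc, an H2B gene, was read in 92 cells (64.3%, exact interval 55.9% to 72.2%) at a pooled level of 90.4 CPM. The H1 gene Hist1h1e followed by number of cells, with 69 cells (48.3%) and 56.6 CPM, and the H4 gene Hist1h4d with 52 cells (36.4%) and 37.3 CPM. The H2A gene Hist1h2ae was read in 43 cells (30.1%) at 67.8 CPM, and the H1 gene Hist1h1c in 40 cells (27.97%) at 63.4 CPM. Each of these intervals and those below is an exact Clopper-Pearson 95% interval for a share or an exact Poisson interval for a count, and covers counting error only.

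Per kilobase of annotated transcript, which allows levels of different genes to be compared, the order differed. Hist1h2ae was highest with 96.4 CPM per kilobase, before Hist1h2bc with 78.2, Hist2h2ac with 60.3, Hist1h2ab with 41.5 and Hist1h1c with 40.6 CPM per kilobase. Hist1h1b, with 34.6 CPM per kilobase, Hist1h4d, with 32.7, Hist1h1e, with 29.3, and Hist1h4i, with 28.7, followed. The annotated length of Hist1h1d is 7425 bases, which places that gene at 0.80 CPM per kilobase although its pooled level was 5.95 CPM. The transcript form behind the reads is not given by a count table, so these values hold only for the annotated lengths.

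By type of protein, H2A held 34.2% of the family's reads, H1 30.4%, H2B 20.6%, H4 13.4% and H3 1.35%. The types also differed in how many genes were read. H2A had 12 of 18 genes above the 5% line and H1 had 4 of 6. H4 had 4 of 13, H3 had 4 of 12 and H2B had 2 of 19, which were Hist1h2bc and Hist1h2bj. H2B thus stood mainly on 1 gene, since Hist1h2bc gave 90.4 of the type's 104.04 pooled CPM. By cluster, 54 genes of Hist1 on chromosome 13 gave 435 CPM, 10 genes of Hist2 on chromosome 3 gave 36.6 CPM, and 3 genes of Hist3 on chromosome 11 gave 32.8 CPM, of which Hist3h2a held 31.8.

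Cells were classed by known cell cycle genes. A cell belongs to the G2/M class when at least 8 of 40 G2/M genes, which serve mitosis, reach 10 CPM. Of the other cells, those with at least 6 of 33 S genes, which serve DNA replication, at 10 CPM form the S class, and the rest form neither class. The G2/M class held 35 cells (28 on plate 1 and 7 on plate 2), the S class 44 cells (27 and 17) and neither class 64 cells (40 and 24). The class names are short for these counts of genes, and G2/M cells also held a median of 22 S genes at 10 CPM, against 11 in the S class and 2 in neither class. A class is thus a range and not a cell type, and 39 cells lay within 2 genes of a limit.

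Total counts per cell ran from 271190 to 1226521, with a median of 760690. Median gene counts were 741189 in the G2/M class, 758794 in the S class and 708277 in neither class. The median number of detected genes was 3659, 3503 and 2842 in the same order, and the median of gene counts per spike-in count, a measure of RNA in the well, was 27.98, 27.1 and 20.8. Of 10 microglial genes all were read, 6 of them in every cell, and their summed level was 8656 CPM or more in every cell. Of markers of 8 other cell types, the macrophage receptor Mrc1 was read in 55.9% of cells, while Cd163, Lyve1 and Cd209f, the other markers of border macrophages, were at 0 in all cells. Mrc1 moved with the classes, with a pooled level of 96.1 CPM in the G2/M class, 141.6 CPM in the S class and 258 CPM in neither class, and a median over cells of 0, 31.4 and 189 CPM. The next most frequent were Cspg4, of precursors of oligodendrocytes, in 17.5% of cells, Slc1a3, of astrocytes, in 13.3%, and Mag, of oligodendrocytes, and Flt1, of endothelium, in 10.5% each. These moved with the classes too. In the G2/M class, the S class and neither class, the pooled level of Cspg4 was 29.1, 33.3 and 6.46 CPM, that of Slc1a3 3.97, 22.5 and 11.9 CPM, that of Mag 8.79, 8.72 and 26.002 CPM, and that of Flt1 3.15, 18.1 and 10.8 CPM. The summed level of each list other than that of border macrophages had a median of 0 in every class. The part of these markers in the class differences was not tested. Atoh1, Aqp4, Mog, Mobp, Pdgfra, Cldn5 and Pecam1 were at 0.

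The family as a whole was highest in the G2/M class and lowest in the S class. Its summed level per cell ran from 0 to 3135 CPM in G2/M cells with a median of 1190 CPM, from 0 to 616 CPM in S cells with a median of 118.8 CPM, and from 0 to 2168 CPM in cells of neither class with a median of 241 CPM. The ranges overlap, but 20 G2/M cells, 0 S cells and 3 cells of neither class exceeded 1000 CPM. Pooled over cells, the level was 1255 CPM (exact interval 1242 to 1269) in the G2/M class, 176 CPM (171 to 181) in the S class and 313 CPM (308 to 318) in neither class. On the log2 scale G2/M stood 2.01 above neither class and 2.84 above the S class, and S stood at -0.83 against neither class. Within plate 1 these log2 ratios were 2.37, 2.74 and -0.37, and within plate 2 they were 1.70, 3.12 and -1.42. Scaled to spike-ins in place of gene counts they were 2.52, 2.94 and -0.42, where the median of all compared genes was 0.61, 0.18 and 0.43, against 0.13, 0.08 and 0.05 in CPM. The number of histone genes read per cell had a median of 15 in the G2/M class, 3 in the S class and 3 in neither class.

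**Figure D1:**
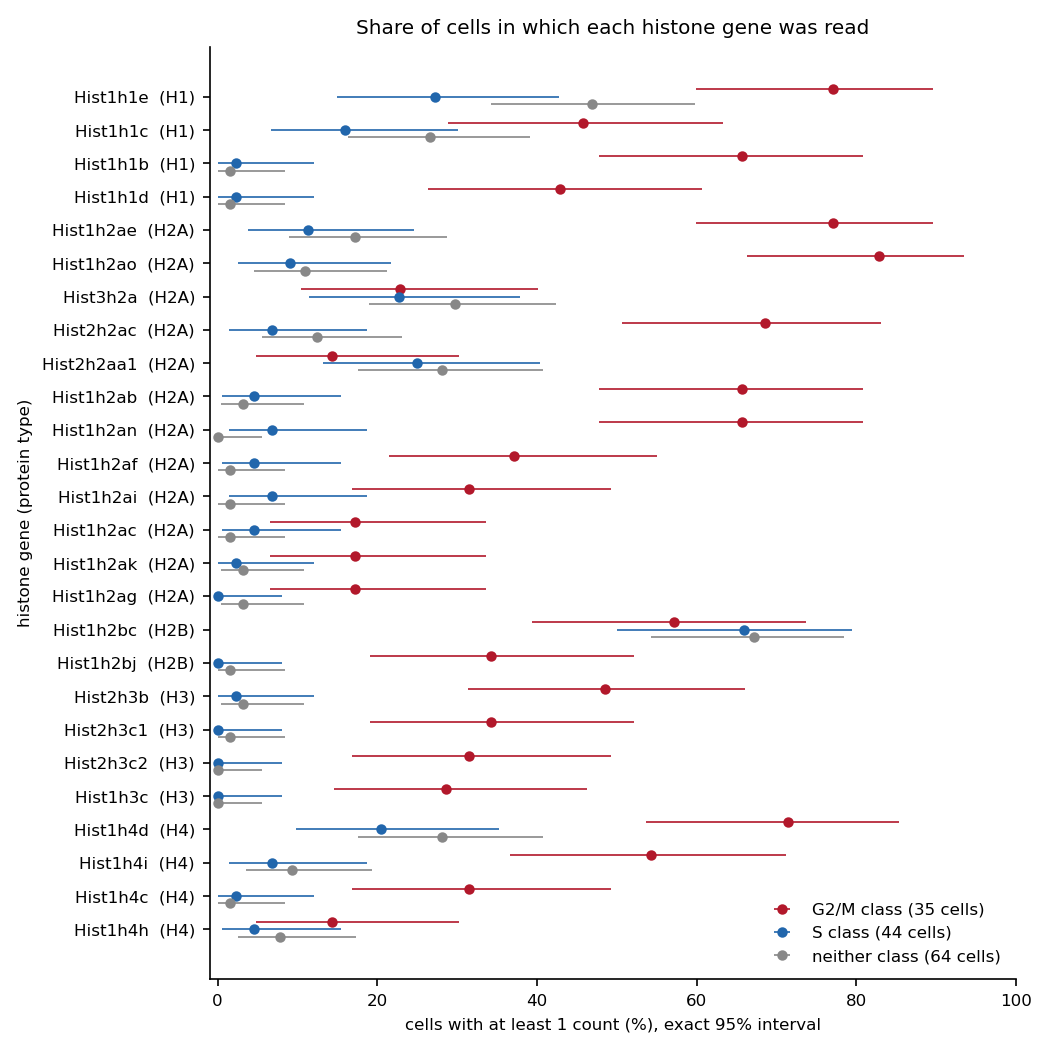
Share of cells with at least 1 count (x axis, %) for the 26 histone genes read in at least 5% of cells (y axis, with the type of protein), in the G2/M class (red), the S class (blue) and neither class (grey). Points are shares and bars exact 95% intervals, which cover counting error only. Hist1h2ao, Hist1h2ae and Hist1h1e reach 77.1% or more in the G2/M class, while Hist1h2bc, Hist3h2a and Hist2h2aa1 have overlapping intervals in all 3 classes.

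The higher H2A genes of the Hist1 and Hist2 clusters were read mostly in G2/M cells. Hist1h2ae (chr13:23570517-23571220, minus strand, 1 exon) ran from 0 to 814 CPM in G2/M cells with a median of 267 CPM, from 0 to 40.4 CPM in S cells and from 0 to 125.3 CPM in cells of neither class, both with a median of 0. Its pooled level was 255 CPM in the G2/M class, 2.88 CPM in the S class and 7.82 CPM in neither class, a ratio of 88.7 between G2/M and S and of 32.6 between G2/M and neither. It was read in 27 of 35 G2/M cells, 5 of 44 S cells and 11 of 64 cells of neither class, and the highest cells of neither class lay within the range of the G2/M cells. Hist2h2ac (chr3:96220361-96220880, minus strand) was read in 24 of 35 G2/M cells, 3 of 44 S cells and 8 of 64 cells of neither class. Its pooled level was 112.2 CPM in the G2/M class, 1.87 CPM in the S class and 6.55 CPM in neither class.

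Hist1h2ab (chr13:23751126-23751598, plus strand), which makes H2A, and Hist1h1b (chr13:21779883-21780625, minus strand), which makes an H1 protein, were read almost entirely in G2/M cells. Hist1h2ab was read in 23 of 35 G2/M cells, 2 of 44 S cells and 2 of 64 cells of neither class, with a median of 57.4 CPM and a highest value of 358 CPM in G2/M cells. Its pooled level was 75.2 CPM in the G2/M class, 1.41 CPM in the S class and 1.05 CPM in neither class. Hist1h1b was read in 23 of 35 G2/M cells at a median of 70.9 CPM and a highest value of 521 CPM, in 1 of 44 S cells at 154 CPM, and in 1 of 64 cells of neither class at 1.42 CPM. One or both of these genes were read in 31 cells, and both in 21, of which 20 were in the G2/M class. Hist1h2an, another H2A gene (chr13:21786826-21787218, minus strand), was read in 23 of 35 G2/M cells, 3 of 44 S cells and 0 of 64 cells of neither class. Its pooled level was 30.97 CPM in the G2/M class and 0.52 CPM in the S class, and 85.8% of its windows occur in another gene. Set against an assumed floor of 3 counts over neither class, the G2/M level of Hist1h2an was 463-fold higher. That value is no lower bound. The gene had a median of 46.6 CPM in the cells where it was read, so 1 more such cell would lower the ratio greatly.

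Hist1h2ao was read in the largest share of G2/M cells, 29 of 35 (82.9%, 66.4% to 93.4%), against 4 of 44 S cells and 7 of 64 cells of neither class. Its levels were low, at most 38.05 CPM, and 93.5% of the 50-base windows of its annotated transcript occur in another gene, Hist1h2ap first, so part of its reads could belong to such a copy. The remaining H2A genes of the Hist1 cluster had pooled levels below the 4.20 CPM of Hist1h2ao. Hist1h2af was read in 13, 2 and 1 cells of the G2/M class, the S class and neither class, Hist1h2ai in 11, 3 and 1 cells, Hist1h2ak in 6, 1 and 2 cells, and Hist1h2ag in 6, 0 and 2 cells. Hist1h2ac was read in 6, 2 and 1 cells, and 99.01% of its summed CPM came from 5 cells, with the highest level of 307 CPM in the cell of neither class.

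**Figure D2:**
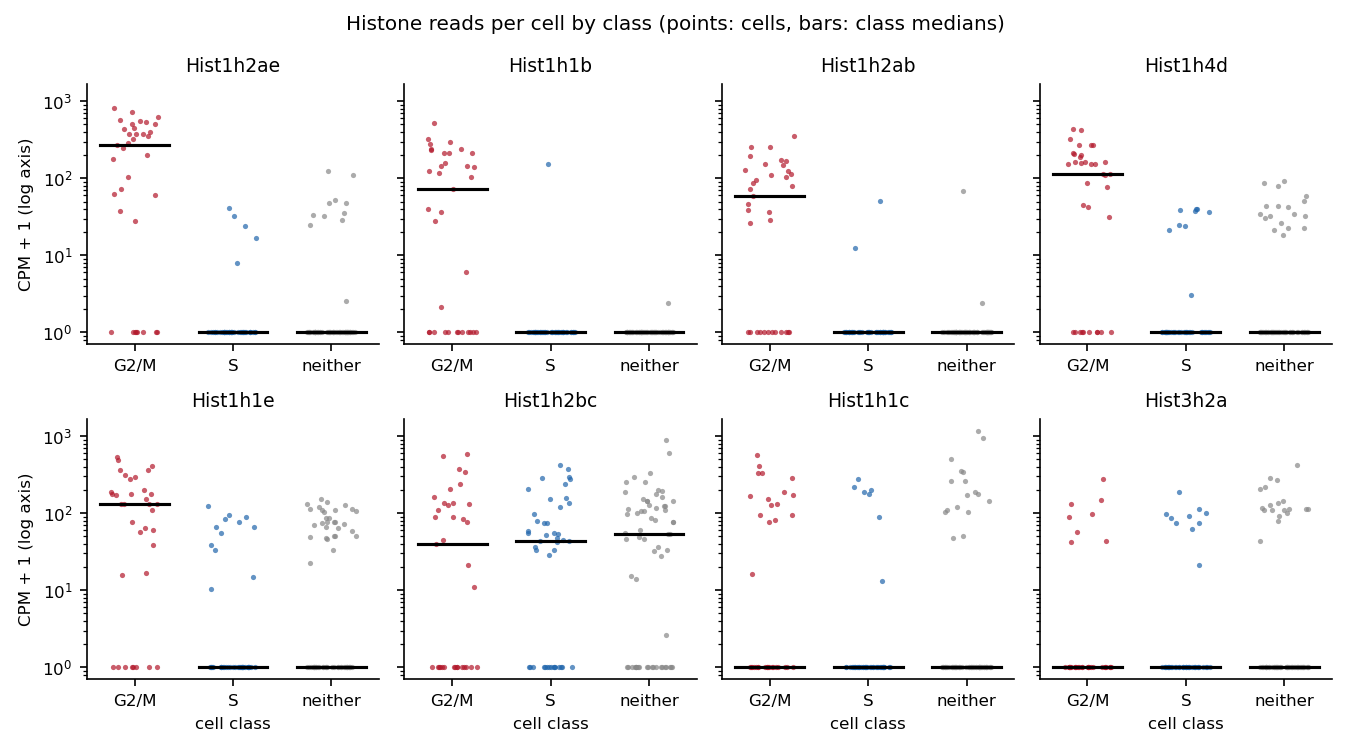
CPM + 1 (y axis, log) of 8 histone genes in each cell of the G2/M class, the S class and neither class (x axis). Points are cells and black bars class medians. Hist1h2ae, Hist1h1b, Hist1h2ab, Hist1h4d and Hist1h1e have a median above 0 only in the G2/M class among these 3 classes, whereas Hist1h2bc, Hist1h1c and Hist3h2a reach 189 CPM or more in every class.

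Of the H1 genes, Hist1h1e (chr13:23620629-23622558, minus strand) was read in 27 of 35 G2/M cells, 12 of 44 S cells and 30 of 64 cells of neither class. Its cells ran from 0 to 539 CPM with a median of 130.8 CPM in the G2/M class, from 0 to 122.7 CPM in the S class and from 0 to 152 CPM in neither class. Its pooled level of 140.7 CPM in the G2/M class was 8.88 times that of 15.9 CPM in the S class and 3.70 times that of 38.01 CPM in neither class. Hist1h1e was thus also read in 46.9% (34.3% to 59.8%) of the cells of neither class, where Hist1h1b was read in 1.56%. Its annotated span overlaps that of Hist1h2be on the same strand, so reads of the pair could have been assigned to one or dropped. Hist1h1d was read in 15 of 35 G2/M cells, 1 of 44 S cells and 1 of 64 cells of neither class.

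Hist1h1c (chr13:23738808-23740367, plus strand), another H1 gene, followed the classes less plainly. It was read in 16 of 35 G2/M cells, 7 of 44 S cells and 17 of 64 cells of neither class, at pooled levels of 89.4, 26.1 and 75.5 CPM. Its highest value was 567 CPM in a G2/M cell, 279 CPM in an S cell and 1160 CPM in a cell of neither class, and 37.95% of its summed CPM came from 5 cells. The pooled level differed between plates. In the G2/M class it was 104.2 CPM on plate 1 and 27.4 CPM on plate 2, and in neither class it was 31.2 CPM on plate 1 and 151 CPM on plate 2, so the order of these classes turned round between plates. On plate 1 alone its log2 ratio of S over neither class was 0.24.

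Of the H4 genes, which encode this core histone from many near-identical copies, Hist1h4d (chr13:23581598-23582735, plus strand) was read in 25 of 35 G2/M cells, 9 of 44 S cells and 18 of 64 cells of neither class. The median G2/M cell had 113.8 CPM and the highest 433 CPM, against highest values of 38.95 CPM in S cells and 90.1 CPM in cells of neither class. Pooled levels were 123.1, 5.42 and 11.3 CPM, 22.7 times higher in the G2/M class than in the S class and 10.9 times higher than in neither class. Hist1h4i was read in 19, 3 and 6 cells of the G2/M class, the S class and neither class, at pooled levels of 57.5, 7.80 and 9.49 CPM. Hist1h4c was read in 11, 1 and 1 cells and Hist1h4h in 5, 2 and 5 cells.

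The H3 genes were the least read. Pooled over 12 genes, H3 came to 22.8 CPM in the G2/M class, 0.031 CPM in the S class, which was 1 count, and 2.58 CPM in neither class. Hist1h3c (chr13:23744973-23745602, minus strand) was read in 10 of 35 G2/M cells, at most 53.4 CPM, and in 0 of 44 S cells and 0 of 64 cells of neither class. Hist2h3b was read in 17, 1 and 2 cells of the G2/M class, the S class and neither class, Hist2h3c1 in 12, 0 and 1 cells and Hist2h3c2 in 11, 0 and 0 cells. A cell held at most 15 counts of Hist2h3b and at most 2 of Hist2h3c2. Hist2h3c1 reached 47 counts (72.8 CPM) in its 1 cell of neither class, so its pooled ratio of G2/M over neither class was 0.89. Hist2h3b, Hist2h3c1 and Hist2h3c2 share 100%, 100% and 63.5% of their 50-base windows with other annotated genes.

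Among the H2B genes Hist1h2bj was read in 12 of 35 G2/M cells, 0 of 44 S cells and 1 of 64 cells of neither class, at a pooled level of 11.8 CPM in the G2/M class. Hist1h2bc (chr13:23684199-23692908, plus strand, 2 exons) showed no such order. It was read in 20 of 35 G2/M cells (57.1%, 39.4% to 73.7%), 29 of 44 S cells (65.9%, 50.1% to 79.5%) and 43 of 64 cells of neither class (67.2%, 54.3% to 78.4%). Its median was 38.8 CPM in G2/M cells, 43.2 CPM in S cells and 53.1 CPM in cells of neither class, and its pooled levels were 103.8, 78.02 and 91.9 CPM. Its longest annotated transcript is spliced, 30.6% of the 50-base windows of that transcript occur in another gene, and the stem-loop was not found in it. Any shorter transcript of Hist1h2bc was not searched.

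Hist3h2a (chr11:58954685-58956830, plus strand), an H2A gene outside the large clusters, was likewise spread over the classes. It was read in 8 of 35 G2/M cells, 10 of 44 S cells and 19 of 64 cells of neither class, at pooled levels of 22.7, 19.1 and 46.3 CPM, the highest being in neither class. It overlaps Trim17 on the same strand in the annotation. Hist2h2aa1 was read in 5, 11 and 18 cells, but never with more than 8 counts, and all of its 50-base windows occur in other annotated genes. Hist1h2bc, Hist1h1c and Hist3h2a together made up 17.2% of the family's counts in the G2/M class, 70.1% in the S class and 68.3% in neither class. Leaving out these 3 genes, which were picked after their values were seen, the log2 ratio of G2/M over neither was 3.39 and that of G2/M over S was 4.30.

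The 3 cells of neither class above 1000 CPM were read mainly for such genes. The highest of them, on plate 2 with 2168 CPM, held 1160 CPM of Hist1h1c and 892 CPM of Hist1h2bc, and neither Hist1h2ab nor Hist1h1b was read in it. In contrast the highest G2/M cell, on plate 1 with 3135 CPM, had 23 histone genes read and 471 CPM of Hist1h2ab and Hist1h1b together.

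The members that passed a filter on low values were also set beside all genes. A gene was compared when it was read in at least 5 cells, which holds for 31 of 68 members and 10116 genes, and counts as past the fold when the log2 ratio of pooled CPM + 1 reached 1 in size. A gene high in G2/M cells alone can pass this filter through those cells, so the following counts describe the members that passed and not the family. For G2/M over neither class, 19 of 31 members were past 2-fold higher, where 19.1% of all compared genes were, and 0 of 31 were past 2-fold lower, where 12.3% of genes were. For G2/M over S, 22 of 31 members were past 2-fold higher, beside 15.2% of genes, and 0 of 31 lower, beside 11.2%. For S over neither class, 2 of 31 members were past 2-fold higher, beside 13.5% of genes, and 8 of 31 lower, beside 10.5%. The median log2 ratio of the 31 members was 1.76, 1.81 and -0.07 in the same order of comparisons, against 0.13, 0.08 and 0.05 over all compared genes. Scaled to spike-ins, 22 of 31 members were past 2-fold higher and 0 lower in G2/M over neither class, where 32.8% of all genes were higher and 7.12% lower. Only 11 of the 31 members were read in at least 5 cells outside the G2/M class. Of these 11, 6 were past 2-fold higher in G2/M over neither class and 8 in G2/M over S, with 0 lower in either comparison. In S over neither class 0 of the 11 were higher and 5 lower. The share of all genes under this narrower filter was not computed.

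The 8 members past 2-fold lower in S than in neither class were Hist1h1c, Hist1h1e, Hist1h2ae, Hist1h2ag, Hist1h2bg, Hist2h2ac, Hist2h3c1 and Hist3h2a. Only 5 of them were read in at least 5 cells outside the G2/M class. Hist1h2ag and Hist1h2bg rested on 2 cells of neither class each, and Hist2h3c1 on 1 cell. Hist1h1e had 15.9 CPM pooled in the S class against 38.01 CPM in neither class, a log2 ratio of -1.21, and was read in 27.3% (15.0% to 42.8%) and 46.9% (34.3% to 59.8%) of their cells. For Hist2h2ac the log2 ratio was -1.40, with 3 of 44 and 8 of 64 cells read, and for Hist3h2a it was -1.24, with 10 of 44 and 19 of 64 cells read. The share of cells was lower in the S class for each of these 3 genes, with intervals that overlap. Scaled to spike-ins in place of gene counts, 3 members in place of 8 were past 2-fold lower, where 6.45% of genes were. The 2 members past 2-fold higher in S were Hist1h1b, on 1 S cell of plate 2, and Hist2h2be, on 2 S cells.

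Across cells, histone reads followed the G2/M genes more than the S genes. Spearman's rho between summed histone CPM and the number of G2/M genes at 10 CPM was 0.47 over 143 cells, and with the number of S genes it was 0.14. For the summed CPM of Hist1h2ab and Hist1h1b these values were 0.64 and 0.50. Within the 35 cells of the G2/M class, summed histone CPM had a rho of 0.63 with the G2/M genes and of -0.07 with the S genes. In the cells outside that class the values were 0.03 and -0.33. The same cells and depth underlie both sides of each value, and with detected genes summed histone CPM had a rho of 0.13 and with gene counts of -0.11. Between plates 1 and 2 the rho with the G2/M genes was 0.55 and 0.37, and with the S genes 0.22 and -0.01.

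**Figure D3:**
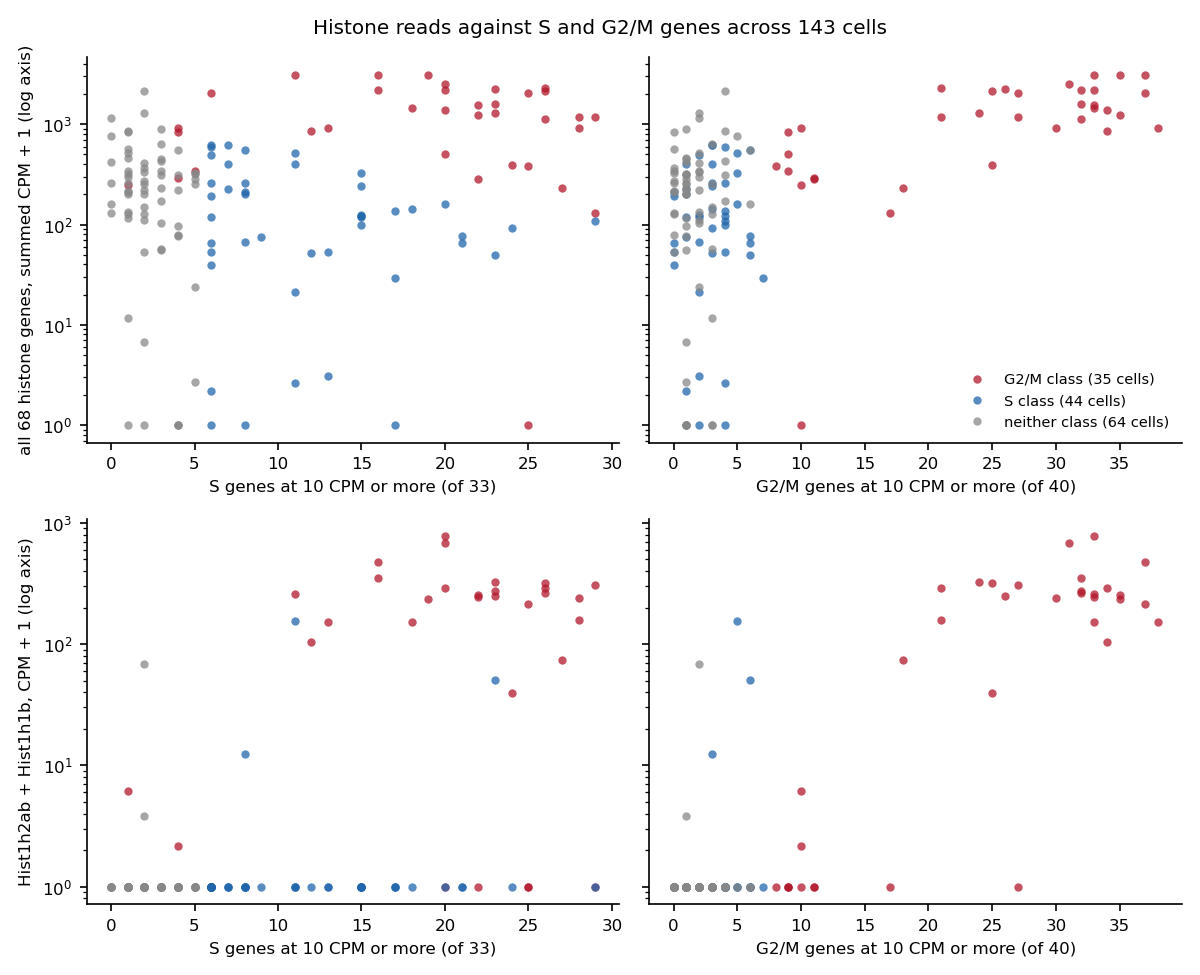
Summed CPM + 1 of all 68 histone genes (upper row, log y axis) and of Hist1h2ab and Hist1h1b (lower row, log y axis) in each of 143 cells, against the number of 33 S genes (left) and of 40 G2/M genes (right) at 10 CPM or more. Points are cells of the G2/M class (red), the S class (blue) and neither class (grey). Of 26 cells with 16 or more G2/M genes, 24 had one of the pair read, whereas the 10 blue cells with 16 or more S genes stay at 158.3 CPM or less in the upper row.

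Cells with many S genes were also compared with and without many G2/M genes. The 26 cells with 16 or more G2/M genes at 10 CPM had 129.1 to 3135 CPM of histone reads, with a median of 1501 CPM and 16.5 histone genes read. Hist1h2ae was read in 25 of them and Hist1h2ab or Hist1h1b in 24. Their median number of S genes was 22.5, so these cells hold both sets. The 10 cells with 16 or more S genes but fewer than 8 G2/M genes had 0 to 158.3 CPM, with a median of 83.3 CPM and 2 histone genes read, although their median of 20.5 S genes was close to that of the cells rich in G2/M genes. Hist1h2ae was read in 2 of these 10 cells, Hist1h2ab or Hist1h1b in 1, and Hist1h2bc in 6. The summed ranges of the 26 and the 10 cells overlap between 129.1 and 158.3 CPM. The 9 cells with 8 to 15 G2/M genes, all on plate 1, had a median of 5 S genes and of 339 CPM, and Hist1h2ab or Hist1h1b was read in 2 of them. Of the 10 cells rich in S genes alone 9 were on plate 1, so plate 2 says little of them.

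Members also differed in how they followed the cycle genes cell by cell. Over 143 cells the rho with the number of G2/M genes was 0.62 for Hist1h2ao, 0.60 for Hist1h2an and Hist1h2ab, 0.59 for Hist1h1b and 0.58 for Hist1h2ae. It was 0.05 for Hist1h2bc, -0.14 for Hist3h2a and -0.14 for Hist2h2aa1. Within the G2/M class it was 0.78 for Hist1h4d, 0.75 for Hist1h2ab and 0.67 for Hist1h1e, and -0.28 for Hist1h2bc. Among the 26 genes read in at least 5% of cells, 325 pairs had a median rho of 0.29, and 70 pairs were above 0.5. The closest pair was Hist1h2ab and Hist1h2an with 0.82, before Hist1h1b and Hist1h2an with 0.79. The lowest value was -0.24, between Hist1h2ab and Hist1h2bc. Many zeros are shared by these genes, and near-identical copies can share reads, so the values are descriptive.

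Of 7772 other genes read in at least 10% of cells, those whose pattern was most like summed histone CPM over 143 cells were Birc5, with a rho of 0.65, Mki67 with 0.61, Spc24 with 0.60, Ccnb2 with 0.59 and Cdca3 with 0.57. Cdca2, Ccnb1, Pbk, Ndc80 and Ckap2l followed with 0.56 to 0.54. Birc5 serves chromosome segregation and the end of cell division, Mki67 coats mitotic chromosomes, Spc24 and Ndc80 belong to the kinetochore, and Ccnb1 and Ccnb2 are the B cyclins of mitosis. All but Spc24 and Pbk stand in the G2/M list that set the classes. The median rho over the 7772 genes was 0.01 and the highest 1% began at 0.39. On plates 1 and 2 Birc5 had 0.72 and 0.50.

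The genes most like the summed CPM of Hist1h2ab and Hist1h1b were Cdca2 with a rho of 0.85, Pbk and Ckap2l with 0.79, Top2a, the topoisomerase that untangles copied DNA, with 0.79, and Kif4, a chromosome kinesin, with 0.76. Hist1h2bc had no gene of such likeness. Its highest was Ankle2 with 0.33, before 2310009A05Rik with 0.30, Epc1 with 0.29 and the linker histone variant H1f0 with 0.28.

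The members were also grouped by the transcript end in the annotation. In 23 genes more than 100 annotated bases follow the stem-loop, and these were read in a median of 6 cells, 11 of them in at least 5% of cells. In 22 genes 100 bases or fewer follow it, with a median of 4 cells and 8 genes in at least 5% of cells. In the 23 genes with no stem-loop found the median was 2 cells, with 7 genes in at least 5%. Each group held genes in many cells and genes in few. Hist1h1e has 1153 annotated bases after the stem-loop, Hist1h4d 770, Hist1h1c 840 and Hist3h2a 1643, whereas Hist1h2ab, read in 27 cells, has 11 and Hist2h2ac, in 35 cells, has 57. Hist4h4, with 2445 bases after the stem-loop, was read in 0 cells. A poly(A) signal (AATAAA or ATTAAA) was found in the last 50 annotated bases of 16 genes, which were read in a median of 4.5 cells, against a median of 4 cells for the 52 genes without one. Over 45 genes the rho of the bases after the stem-loop with the number of cells read was 0.26, and over 68 genes that of annotated length was 0.27. The most A in any 20 bases of the transcript, where an oligo-dT primer could anneal inside, had a rho of 0.15, and the share of windows found in another gene had -0.13. The group without a stem-loop includes genes annotated by their coding part alone. Absence there says only that these letters are not in the longest annotated transcript.

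**Figure D4:**
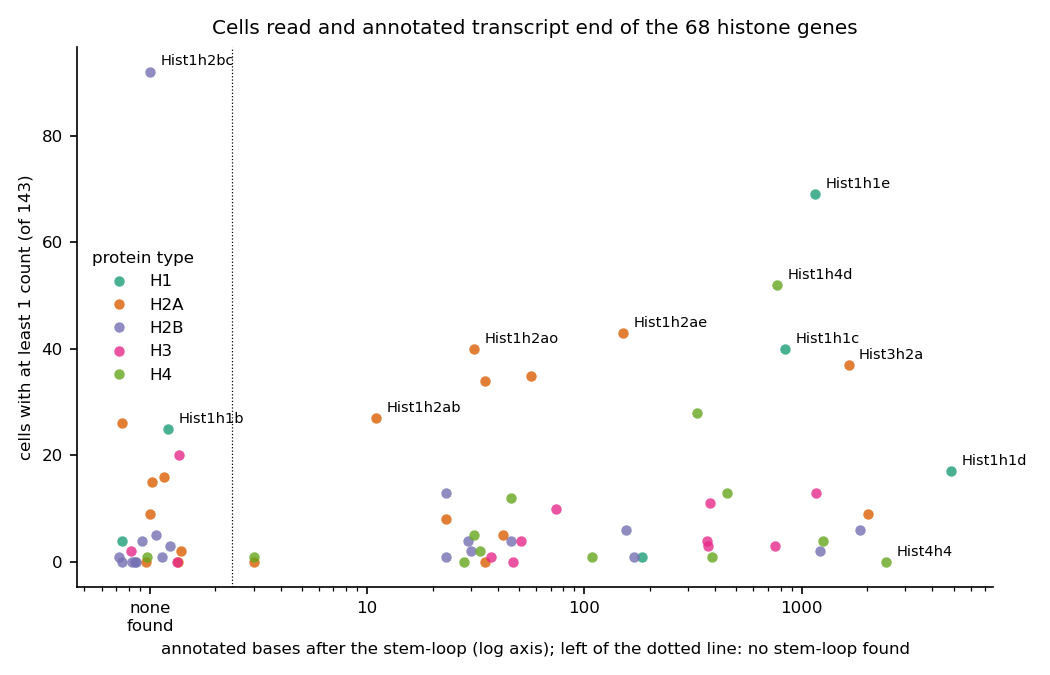
Number of cells with at least 1 count (y axis, of 143) for each of 68 histone genes against the annotated bases after the stem-loop (x axis, log), with the 23 genes in which no stem-loop was found left of the dotted line. Points are genes, coloured by type of protein. Hist1h2bc, read in 92 cells, has no stem-loop in its longest annotated transcript. Hist1h1e, Hist1h4d and Hist1h1c lie at 770 bases or more while Hist1h2ab and Hist1h2ao lie at 31 or fewer.

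Histone genes often lie head to head and share the stretch between their starts. Of 14 such pairs less than 1000 bases apart, several were read unevenly. Hist1h2ae was read in 43 cells and Hist1h2bg, 175 bases away, in 6, and 5 cells held both. Hist2h2ac was read in 35 cells and Hist2h2be, 238 bases away, in 5, with 2 cells holding both. Hist1h2an was read in 26 cells against 4 for Hist1h2bp, Hist1h2ai in 15 against 1 for Hist1h2bl, and Hist1h2ao in 40 against 0 for Hist1h2bq. In each of these pairs the H2A gene was the one read more. The pair of Hist1h2ac and Hist1h2bc, 250 bases apart, went the other way, with 9 cells for the H2A gene and 92 for the H2B gene, and 7 cells held both. Hist1h2ag was read in 8 cells and Hist1h2bj in 13. The share of 50-base windows that occur in another gene was 85.8% for Hist1h2an and 45.3% for Hist1h2bp, 90.1% for Hist1h2ai and 82.8% for Hist1h2bl, 93.5% for Hist1h2ao and 97.3% for Hist1h2bq, and 54.99% for Hist2h2ac and 0% for Hist2h2be. It was 43.2% for Hist1h2ae and 49.7% for Hist1h2bg, 14.1% for Hist1h2ac and 30.6% for Hist1h2bc, and 78.9% for Hist1h2ag and 59.4% for Hist1h2bj. The part of shared windows in the uneven reading was not tested. The sources used here do not say how reads with multiple matches were counted.

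**Figure D5:**
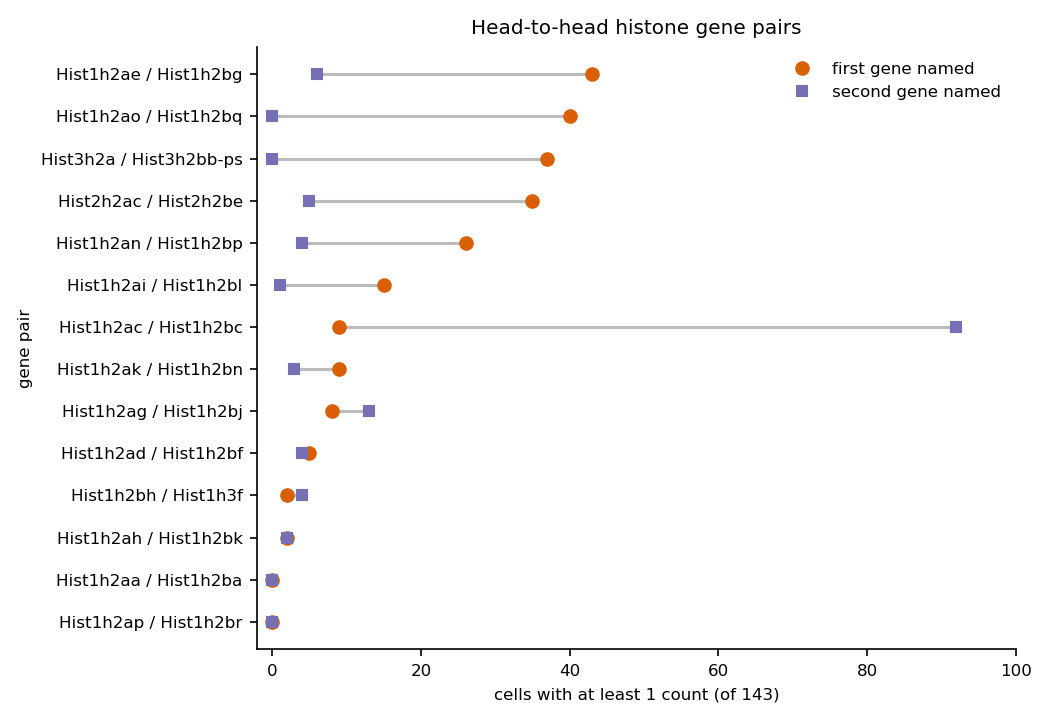
Number of cells with at least 1 count (x axis, of 143) for both genes of 14 head-to-head pairs (y axis). Circles are the first gene named and squares the second. The H2A gene lies right of its H2B partner in pairs such as Hist1h2ae and Hist1h2bg (43 and 6 cells), and the pair of Hist1h2ac and Hist1h2bc (9 and 92 cells) is turned round.

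The promoters are shown because genes read together in G2/M cells can be set beside the spread-out Hist1h2bc. RefSeq promoters on GRCm38.p6, from 250 bases before to 50 after the start, matched 60 of 68 genes, among them Hist1h2ac, whose window spans all the bases between it and Hist1h2bc. Capitals mark any of 4 motifs searched on both strands, which are the TATA box TATAAA, the CCAAT box written as CCAAT, the octamer ATTTGCAT and the element AAACACA known from H1 promoters.
Hist1h2ae (chr13:23571171-23571470, minus strand): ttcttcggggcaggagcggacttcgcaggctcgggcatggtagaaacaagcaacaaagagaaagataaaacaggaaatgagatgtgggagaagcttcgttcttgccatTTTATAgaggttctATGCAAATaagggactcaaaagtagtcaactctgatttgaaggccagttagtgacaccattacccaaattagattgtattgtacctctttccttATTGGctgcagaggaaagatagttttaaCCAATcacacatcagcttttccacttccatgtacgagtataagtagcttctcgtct
Hist1h2ab (chr13:23750838-23751137, plus strand): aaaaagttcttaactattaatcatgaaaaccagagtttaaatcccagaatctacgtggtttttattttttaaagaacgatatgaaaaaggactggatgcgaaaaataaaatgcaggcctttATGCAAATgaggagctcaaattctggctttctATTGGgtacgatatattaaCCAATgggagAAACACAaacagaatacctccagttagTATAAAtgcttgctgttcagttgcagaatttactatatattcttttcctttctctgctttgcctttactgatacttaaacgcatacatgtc
Hist1h1b (chr13:21780576-21780875, minus strand): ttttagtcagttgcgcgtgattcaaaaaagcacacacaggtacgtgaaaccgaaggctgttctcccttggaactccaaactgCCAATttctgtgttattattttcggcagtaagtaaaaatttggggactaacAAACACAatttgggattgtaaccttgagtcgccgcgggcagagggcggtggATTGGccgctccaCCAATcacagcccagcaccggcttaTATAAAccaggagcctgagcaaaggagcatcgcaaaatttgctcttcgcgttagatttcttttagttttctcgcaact
Hist1h4d (chr13:23581318-23581617, plus strand): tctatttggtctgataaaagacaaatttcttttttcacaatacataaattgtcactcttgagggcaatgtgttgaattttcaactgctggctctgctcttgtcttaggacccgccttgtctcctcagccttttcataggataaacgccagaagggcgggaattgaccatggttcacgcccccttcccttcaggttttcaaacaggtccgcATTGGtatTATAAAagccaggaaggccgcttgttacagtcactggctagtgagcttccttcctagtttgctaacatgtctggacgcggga
Hist1h2ac (chr13:23683910-23684209, minus strand): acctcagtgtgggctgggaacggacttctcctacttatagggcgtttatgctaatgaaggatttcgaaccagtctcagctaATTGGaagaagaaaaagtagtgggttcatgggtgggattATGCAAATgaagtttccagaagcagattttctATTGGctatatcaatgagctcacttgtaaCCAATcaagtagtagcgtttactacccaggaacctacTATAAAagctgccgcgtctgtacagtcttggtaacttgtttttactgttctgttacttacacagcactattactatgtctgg
CCAAT was in 51 of 60 members' windows (85%), against 37.4% of 32544 promoters, and in every H1, H2A, H2B and H3 window but in 3 of 12 H4 windows. TATAAA was in 35 of 60 windows (58.3%), against 13.6% of all promoters. The octamer was in 13 of 60 (21.7%), against 1.75% of all, and these were 7 of 17 H2A and 6 of 15 H2B windows. AAACACA was in 9 of 60 (15.0%), against 7.20% of all, among them 5 of 6 H1 windows. Head-to-head partners can have overlapping windows, as Hist1h2ae and Hist1h2bg do. With both strands searched, a site in the overlap counts for both genes. The members' shares of all 4 motifs are thus not shares of separate sites. Hist1h2ae, Hist1h2ab, Hist2h2ac and Hist1h2ac all hold the octamer, and Hist1h2an, with a like pattern over cells, does not. The window that Hist1h2ac shares with Hist1h2bc holds a TATA box, 3 CCAAT boxes and an octamer, as many kinds as that of Hist1h2ae. The TATAAA in the window of Hist1h2ae lies on the other strand, at a site that the window of Hist1h2bg holds in its own direction. A match is a description of letters and no site of binding was measured.

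Among the replication-independent histone variants, which mostly have poly(A) tails, several were read in nearly all cells. H3f3b, a gene of the variant H3.3, was read in 143 cells at pooled levels of 1755 CPM in the G2/M class, 1038 CPM in the S class and 1081 CPM in neither class, and H2afz in 99.3% of cells at 1088, 400 and 415 CPM. Of 10 variants compared, 5 were past 2-fold higher in G2/M over S, beside 15.2% of all compared genes. In G2/M over neither class 6 were, beside 19.1%. One of them was H2afx, read in 26 of 35 G2/M cells, 11 of 44 S cells and 3 of 64 cells of neither class at 235, 16.2 and 3.03 CPM. H2afx stands among these variants by the list used, and its transcript was not searched for a stem-loop. The others were H2afz, H2afv with 223, 47.9 and 68.5 CPM, H1f0 with 432, 146 and 172 CPM, H2afy2, read in 6 cells only, and Cenpa. Cenpa, the H3 variant of centromeres, stands in the G2/M list, so its class difference was used in forming the classes. H2afy, H2afj and H3f3a were read in 81.1%, 94.4% and 95.8% of cells with log2 ratios of 0.72, 0.28 and 0.44 for G2/M over neither class, that of H3f3b was 0.70, and H1fx was read in 0 cells. In the G2/M class H2afz alone held 1088 pooled CPM and all 68 replication-dependent genes together held 1255, on a scale of reads that is not divided by length.

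A further list holds genes that make and process histone mRNA. Slbp, which binds the stem-loop, was read in 25 of 35 G2/M cells, 31 of 44 S cells and 23 of 64 cells of neither class, at pooled levels of 205, 125.1 and 54.99 CPM. It stands in the S list that set the classes. Slbp thus had a higher level in the S class than in neither class, where summed histone CPM was lower in the S class, and the rho of summed histone CPM with Slbp was 0.17 over 143 cells and 0.34 within the G2/M class. Cpsf3, the nuclease that cuts after the stem-loop, had 196, 163 and 149 CPM, Lsm10, of the particle that guides the cut, had 59.95, 53.2 and 57.8 CPM, and Eri1, an exonuclease that binds the stem-loop, had 79.2, 55.9 and 34.1 CPM. Npat, the activator of histone gene transcription, and its partner Casp8ap2 were picked for their role after their values were seen. Npat had 52.3, 29.6 and 9.11 CPM in the G2/M class, the S class and neither class, and Casp8ap2 had 38.01, 48.4 and 17.2 CPM. Of 13 such genes compared, Slbp included, 5 were past 2-fold higher and 0 lower in G2/M over neither class, beside 19.1% and 12.3% of all compared genes. In S over neither class 4 were higher and 1 lower, beside 13.5% and 10.5%. In G2/M over S 1 was higher and 1 lower, beside 15.2% and 11.2%. The median log2 ratio of this list was 0.60, 0.72 and 0.24 in that order, against 0.13, 0.05 and 0.08 over all compared genes.

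Histone chaperones carry new histones to DNA. Of 15 compared, 10 were past 2-fold higher and 1 lower in G2/M over neither class, beside 19.1% and 12.3% of all compared genes. In S over neither class 7 were higher and 0 lower, beside 13.5% and 10.5%. In G2/M over S 4 were higher and 1 lower, beside 15.2% and 11.2%. The 15 include Chaf1b, which stands in the S list that set the classes. Rbbp7, a histone-binding subunit of several chromatin complexes, had 490 CPM pooled in the G2/M class, 249 CPM in the S class and 160 CPM in neither class. Nap1l4, a chaperone of H2A and H2B, had 191, 159 and 89.8 CPM, Rbbp4, a close relative of Rbbp7, had 156, 108.7 and 112.9 CPM, and Atrx, which helps deposit H3.3, had 103.02, 104.6 and 125.9 CPM. A few were singled out after their values were seen. Asf1b, which hands H3 and H4 to the assembly factor, had 298, 42.3 and 6.73 CPM, and Hat1, which acetylates new H4, had 147, 113.98 and 20.4 CPM. The one lower gene in G2/M over neither class was Daxx, a chaperone of H3.3, with 0.078 CPM, from 1 cell, in the G2/M class, 32.2 CPM in the S class and 22.5 CPM in neither class.

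Of 8 regulators of the G1 to S step compared, 7 were past 2-fold higher in G2/M over neither class, 6 in S over neither class and 5 in G2/M over S. Of all compared genes, 19.1%, 13.5% and 15.2% were. The 8 include Ccne2 and Ccna2, which stand in the lists that set the classes. Cdk2, the kinase of that step, had 80.7 CPM pooled in the G2/M class, 57.1 CPM in the S class and 26.4 CPM in neither class, and Ccne1, its cyclin, had 97.4, 13.7 and 0 CPM. Ccna2, the cyclin of S phase and G2, had 193, 0.70 and 0.36 CPM, and E2f1, a transcription factor, had 41.7, 25.1 and 33.8 CPM. Slbp, Chaf1b, Ccne2, Ccna2 and Cenpa also stand in the lists behind the classes. Leaving them out of those lists gave 34, 36 and 73 cells in the classes and log2 ratios of summed histone CPM of 2.01 for G2/M over neither, -1.01 for S over neither and 3.03 for G2/M over S.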

How the data were processed

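Smart-seq2 libraries of 143 single cells were analysed from the deposited table of raw read counts per gene and cell. The authors trimmed with Trim Galore 0.4.3, aligned to mm10 with STAR 2.5.3a and used Picard and HTSeq, per the submitters' processing notes. The annotation, strand setting and read length used for counting are not given in the sources used here. The reads carry no molecular identifiers, so intervals cover counting error only.

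CPM was computed here from gene counts without the 92 spike-in rows. Classes used 33 S and 40 G2/M genes at 10 CPM or more, with limits of 6 and 8 genes. Class ratios are log2 ratios of pooled CPM, with a pseudocount of 1 for single genes and none for the family's sum. Genes read in at least 5 cells were compared. The ratios were tested on simulated data only for genes with a pooled level of 10 CPM or more, which most compared members do not reach. With 1 sample, no test between classes was made. The members and all lists, class lists included, were chosen with earlier results of these data known. Members read in at least 5% of cells were named, with the 10 genes of highest rho with summed histone CPM, every variant, and the leading 2 to 4 genes of each other list by pooled CPM. Stem-loops and annotation came from GENCODE M21, with the longest transcript of each gene, and promoters from RefSeq GRCm38.p6. Alternatives tried were other limits, filters, pseudocounts, spike-in scaling, thinning and each plate alone. Python 3.11.15, numpy 2.4.6, pandas 2.3.3, scipy 1.17.1 and matplotlib 3.10.9 were used.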

Additional observations from a re-analysis of the deposited data

How the results depend on the processing

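The log2 ratio of summed histone level stayed above 1, from 1.70 to 2.52 for G2/M over neither class and from 2.74 to 4.18 for G2/M over S, under the alternatives that kept all members. Leaving out Hist1h2bc, Hist1h1c and Hist3h2a, chosen for following the classes least, raises both by construction, to 3.39 and 4.30. Members read in at least 1 cell were 41 to 54 under the alternatives, against 56, and those in at least 5% of cells 18 to 26, against 26. The log2 ratio of S over neither class was -0.83 and passed 2-fold on plate 2 alone (-1.42), with class limits of 8 and 12 genes (-1.02), without the genes that stand in several lists (-1.01), and with at least 16 genes in either class (-1.85). Members past 2-fold higher in G2/M over neither class were 19, beside 19.1% of all compared genes. They were 11 on plate 2, beside 24.1%, and 12 with a pseudocount of 10, beside 9.23%. Those lower were 0, beside 12.3% of genes. They were 2 on plate 1 (13.6% of genes), 2 on plate 2 (23.5%), 2 with a pseudocount of 0.1 (13.8%) and 1 among genes read in at least 1 cell (13.7%). In S over neither class, 2 members were higher, beside 13.5% of genes. They were 1 with a filter of 10% of cells (10.4% of genes), 4 with a pseudocount of 0.1 (15.4%) and 0 with one of 10 (4.44%). Lower were 8, beside 10.5% of genes, and 3 scaled to spike-ins (6.45%), 5 with the 10% filter (6.68%) and 1 with a pseudocount of 10 (2.87%). In G2/M over S, 22 members were higher, beside 15.2% of genes. They were 14 on plate 2 (21.5% of genes), 14 with the 10% filter (11.2%) and 13 with a pseudocount of 10 (6.41%). Lower were 0, beside 11.2%, and 1 on plate 2 (23.3%). The number of members compared can change with the plate and the filter. The rho of summed histone CPM with S genes was 0.14, and -0.33 outside the G2/M class, -0.066 inside it and 0.50 for Hist1h2ab and Hist1h1b alone. With G2/M genes it was 0.47, and 0.032 outside, 0.63 inside and 0.64 for that pair. On plate 1 the log2 ratio of S over neither class reversed for Hist1h1b (-0.050, against 2.16) and for Hist1h1c (0.24, against -1.50). The cause was not tested for any of these.

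No paired analysis was possible because all cells belong to 1 group. The setting without overlapping genes, that with 16 or more genes, that without 3 widely read genes, and the rho inside the G2/M class and for Hist1h2ab and Hist1h1b alone were chosen after seeing the data. Class lists of an earlier analysis were not at hand, so that planned exchange was not run. Depth limits what a 0 says, since the shallowest cell had 259613 gene counts.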
